A study of Rattus norvegicus with 23 samples.

Results

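Repressor and output genes of the circadian clock were followed in the heart apex of 23 Lewis rats, 1 RNA-seq library per rat, 6 weeks after kidney transplantation. The set was chosen by identifier and holds 8 of the 26405 genes counted: the repressors Per1 (ENSRNOG00000007387), Per2 (ENSRNOG00000020254), Per3 (ENSRNOG00000018413) and Cry1 (ENSRNOG00000006622), the nuclear receptors Nr1d1 (ENSRNOG00000009329) and Nr1d2 (ENSRNOG00000046912), and the output factors Dbp (ENSRNOG00000021027) and Tef (ENSRNOG00000019383). All 8 were listed in every library and all 8 passed the filter on low counts, as did 11568 genes in all. Their symbols were given with the set, since the deposited tables hold identifiers only.

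Donor and recipient were each either healthy or had chronic kidney disease (CKD), which made 4 groups. In HD-HR (6 rats) both were healthy. In CD-HR (6 rats) only the donor had CKD, in HD-CR (5 rats) only the recipient had it, and in CD-CR (6 rats) both had it. CKD had been induced by ablating part of the renal mass, and was hastened with L-NNA, which blocks nitric oxide synthases, at 200 mg/L in the drinking water and 6% NaCl in the chow. This treatment stopped at a proteinuria of 200 mg per 24 h, and rats were included at 100 mg per 24 h without it. The effects of ablation, L-NNA, salt and CKD cannot be told apart in this design. Every rat, HD-HR included, carried a transplanted left kidney, and the right native one had been removed after 10 to 14 days. The sources used here do not give sex, age or the time of day at which hearts were taken.

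The clock of heart cells, as of most cells, is a feedback loop. CLOCK and BMAL1 switch on genes through E-box sequences, the period (PER) and cryptochrome (CRY) proteins made from such genes then block CLOCK and BMAL1, and the receptors encoded by Nr1d1 and Nr1d2 (REV-ERB alpha and beta) repress Bmal1 and other genes in a second loop. Dbp and Tef encode PAR bZIP factors, which bind D-box sequences and pass the rhythm on to metabolic and other output genes. The mRNA of these genes cycles over the day in heart, with peaks at different times for different members.

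Promoter windows of the members were searched for E-boxes and D-boxes. A match is a description of the letters and no evidence of binding. The windows cover the 250 bases before a RefSeq transcription start on rat build GRCr8, were matched by symbol, and existed for 7 of the 8 members (8 windows, since Nr1d1 has 2). On both strands, the E-box CACGTG was found in windows of Nr1d1 and Tef, the related E'-box CACGTT in windows of Per2 and Nr1d1, and the D-box TTATGTAA in that of Per2. Of all 33469 windows of this length, 5.59% held CACGTG, 4.07% CACGTT and 0.828% TTATGTAA. In Per2 the D-box began at 192 bases and the E'-box at 62 bases before the start. In Nr1d1 the E-box lies in the window printed below and the E'-box in its other window, which is not printed. The first 3 windows below were chosen because they hold a match, in capitals, and the last 2 because Per3 and Dbp had the most closely related levels in these hearts. None of the 3 motifs was found in the windows of Per3 and Dbp, which says only that these letters are not in this stretch.
Per2, chr9:99496994-99497243, - strand: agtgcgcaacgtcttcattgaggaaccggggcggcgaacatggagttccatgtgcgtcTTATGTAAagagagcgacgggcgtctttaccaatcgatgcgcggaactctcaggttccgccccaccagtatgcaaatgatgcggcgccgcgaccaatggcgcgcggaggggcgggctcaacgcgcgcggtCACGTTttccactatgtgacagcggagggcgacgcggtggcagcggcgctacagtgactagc
Tef, chr7:115206577-115206826, + strand: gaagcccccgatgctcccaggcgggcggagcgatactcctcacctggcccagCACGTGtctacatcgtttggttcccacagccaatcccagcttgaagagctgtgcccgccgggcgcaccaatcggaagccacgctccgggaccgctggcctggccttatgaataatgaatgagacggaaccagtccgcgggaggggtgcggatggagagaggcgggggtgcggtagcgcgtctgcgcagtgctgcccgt
Nr1d1, chr10:84229455-84229704, - strand: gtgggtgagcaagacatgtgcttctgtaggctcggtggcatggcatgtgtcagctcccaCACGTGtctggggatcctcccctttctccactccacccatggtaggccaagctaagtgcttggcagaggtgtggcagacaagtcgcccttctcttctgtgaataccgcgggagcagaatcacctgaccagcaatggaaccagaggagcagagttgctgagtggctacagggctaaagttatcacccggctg
Per3, chr5:166777801-166778050, - strand: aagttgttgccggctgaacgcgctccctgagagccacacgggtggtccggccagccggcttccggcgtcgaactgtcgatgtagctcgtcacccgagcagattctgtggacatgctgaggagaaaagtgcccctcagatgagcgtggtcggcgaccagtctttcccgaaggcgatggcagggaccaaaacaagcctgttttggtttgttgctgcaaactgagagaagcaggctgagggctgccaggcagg
Dbp, chr1:105312006-105312255, + strand: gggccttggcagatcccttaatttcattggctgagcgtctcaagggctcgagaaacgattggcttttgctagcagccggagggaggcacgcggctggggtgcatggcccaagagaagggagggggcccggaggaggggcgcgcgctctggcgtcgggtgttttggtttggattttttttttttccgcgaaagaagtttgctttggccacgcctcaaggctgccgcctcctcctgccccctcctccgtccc

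Levels are given in CPM, counts relative to the library's total, which was scaled between libraries by the trimmed mean of M values (TMM). The libraries held 7391929 to 12444980 counts in genes. Per1 had 315 to 1109 counts per library and Cry1, the least counted member, 22 to 96. In bulk heart tissue, fewer cells of a type and less RNA per cell cannot be told apart. Levels are compared between groups for 1 gene at a time, because gene lengths were not used here. Markers of heart cell types could not be looked up, since the tables carry no gene names.

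**Figure D1:**
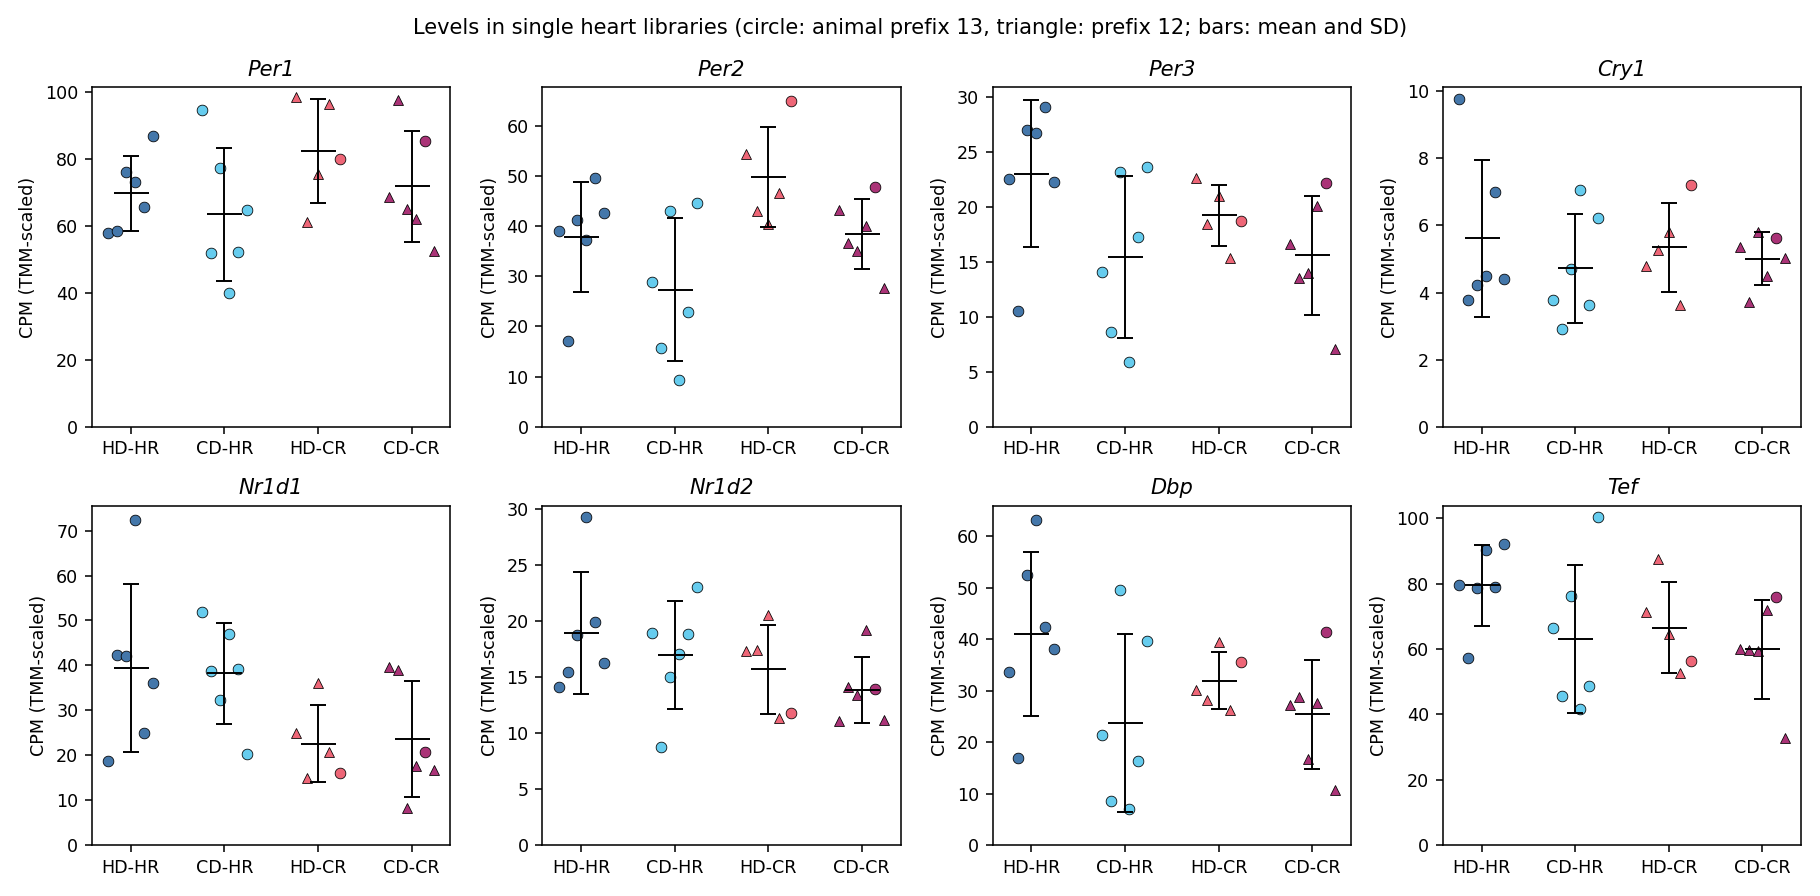
CPM of each member (y axis, from 0) in each library, by group (circles animal prefix 13, triangles prefix 12), with mean and SD as bars. The groups overlap for every member, and the lowest Per1, Per2, Per3 and Dbp points all belong to 1 CD-HR library.

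Among the repressors, Per2, whose protein holds back CLOCK and BMAL1, ran from 17.1 to 49.5 CPM in HD-HR (median 40.2) and from 9.25 to 44.5 CPM in CD-HR (median 25.8). HD-CR hearts held 54.5, 42.9, 40.4, 46.7 and 64.9 CPM, and CD-CR hearts 27.6 to 47.9 CPM (median 38.4). The 2 highest hearts for Per2 were thus CKD recipients of a healthy kidney and the lowest were healthy recipients, with overlap between all groups. Per3, another period gene, stood at 10.6 to 29.1 CPM in HD-HR (median 24.6) and at 5.87 to 23.7 CPM in CD-HR (median 15.6). HD-CR libraries had 22.7, 18.5, 21.0, 15.3 and 18.7 CPM of Per3, and CD-CR libraries 7.03 to 22.2 CPM (median 15.3). Within HD-HR, 5 hearts lay at 22.3 CPM or more and HD-HR2 alone at 10.6 CPM.

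Per1, the period gene that also answers directly to hormones such as glucocorticoids, varied less. Its mean ± SD was 69.7 ± 11.3 CPM over the 6 HD-HR hearts, 63.5 ± 19.9 over the 6 CD-HR, 82.4 ± 15.6 over the 5 HD-CR and 71.9 ± 16.6 over the 6 CD-CR hearts. Cry1, the cryptochrome measured here, averaged 5.61 ± 2.34, 4.72 ± 1.61, 5.34 ± 1.32 and 5.01 ± 0.784 CPM (SD) in the same order of groups. Its highest value, 9.78 CPM, was in HD-HR1 and its lowest, 2.92 CPM, in CD-HR2. For both genes the groups overlapped widely.

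Nr1d1, the REV-ERB alpha gene, ran from 18.7 to 72.3 CPM in HD-HR (median 39.0) and from 20.2 to 51.9 CPM in CD-HR (median 39.0). CKD recipients had 25.1, 15.0, 36.0, 20.7 and 16.0 CPM in HD-CR, and 8.18 to 39.6 CPM in CD-CR (median 19.2). Their values lay lower on the whole, but the highest CKD recipient (39.6 CPM) stood near the median of the 12 healthy recipients (39.0 CPM), and the ranges overlapped. Its paralog Nr1d2 spanned a narrower range, with a mean ± SD of 19.0 ± 5.48 CPM over the 6 HD-HR hearts, 17.0 ± 4.82 over the 6 CD-HR, 15.7 ± 3.97 over the 5 HD-CR and 13.8 ± 2.95 over the 6 CD-CR hearts. In the reference annotation Nr1d1 overlaps Thra, the thyroid hormone receptor alpha gene on the opposite strand. The libraries were directional but the strand setting of the counting is not given, so a part of Thra reads in Nr1d1 cannot be told apart. Per2 and Cry1 each overlap 1 further locus in the reference annotation, which may differ from the one used for counting. The strand of these loci was not recorded here, and whether they affect the counts was not tested.

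The output factor Dbp had the widest span of the set, 7.04 to 63.1 CPM, or 8.95-fold. Its HD-HR hearts lay between 16.9 and 63.1 CPM (median 40.2) and its CD-HR hearts between 7.04 and 49.6 CPM (median 18.9). HD-CR libraries had 30.2, 28.1, 39.5, 26.3 and 35.5 CPM, and CD-CR libraries 10.8 to 41.4 CPM (median 27.3). The 3 lowest hearts for Dbp, CD-HR4 (7.04 CPM), CD-HR2 (8.63 CPM) and CD-CR6 (10.8 CPM), had all received a CKD kidney, while other hearts of those groups reached 49.6 and 41.4 CPM. Tef, its PAR bZIP relative, had a mean ± SD of 79.4 ± 12.5 CPM over the 6 HD-HR hearts, 63.2 ± 22.6 over the 6 CD-HR, 66.5 ± 13.8 over the 5 HD-CR and 60.0 ± 15.1 over the 6 CD-CR hearts.

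The question of whether these genes follow the recipient's own disease was addressed by setting the 11 CKD recipients against the 12 healthy ones, with equal weight for each kind of donor kidney. No member passed the test: edgeR called 0 of 8 at an adjusted p under 0.05, while 12.8% of all 11568 genes were called. At an unadjusted p under 0.05 there were 2 members, Per2 and Nr1d1, against 29.5% of all genes. The median log2 fold change of the 8 was -0.13, beside -0.01 over all genes tested. DESeq2 and limma-voom each called 1 member, Nr1d1, where they called 15.7% and 12.4% of all genes. A count of 1 in 8 is near these shares.

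Nr1d1 had the largest difference of the set, a log2 fold change of -0.75 ± 0.26 (SE), or 0.596-fold with a 95% interval of 0.410 to 0.867. Its adjusted p was 0.0617 by edgeR, 0.0339 by DESeq2 and 0.0364 by limma-voom, so its call depends on the tool. It also passed by edgeR without HD-HR1, HD-CR3, CD-CR1 or CD-CR2 (adjusted p 0.0378, 0.0378, 0.0458 and 0.0457), and over all 23 such omissions its log2 fold change lay between -0.86 and -0.62. With a healthy donor kidney its difference was -0.80 ± 0.38 (adjusted p = 0.264 by edgeR) and with a CKD donor kidney -0.69 ± 0.36 (adjusted p = 0.315), and these comparisons share no library. In neither of the pair did edgeR, DESeq2 or limma-voom call a member, where edgeR called 0.614% and 1.56% of all genes, DESeq2 2.24% and 3.88%, and limma-voom 0.38% and 1.42%. By edgeR Nr1d1 alone had an unadjusted p under 0.05 with a healthy donor kidney, against 18.1% of all genes. That count stayed at 1 without HD-HR1, HD-HR5 or HD-CR3 and was 0 under each other omission and with no filter. Without HD-HR4 Nr1d1 was at -0.54 (unadjusted p = 0.152 by edgeR). With a CKD donor kidney no member had an unadjusted p under 0.05 by edgeR, against 17.8%, but 2 did without CD-HR6. The count there was 1 without CD-HR2, CD-HR3, CD-CR1 or CD-CR2 and 0 under each other omission. With all libraries limma-voom gave there an unadjusted p of 0.022 for Nr1d1 and 0.029 for Per2, and DESeq2 gave none under 0.05. Shares of all genes at an unadjusted p under 0.05 were taken only for edgeR with all 23 libraries.

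Per2 differed in the other direction, with a log2 fold change of 0.44 ± 0.21 averaged over donors (95% interval 0.01 to 0.88, adjusted p = 0.156 by edgeR). It stood at 0.40 ± 0.30 with a healthy kidney (adjusted p = 0.494) and 0.49 ± 0.29 with a CKD kidney (adjusted p = 0.388), where it was 0.30 without CD-HR4. Nr1d2 was at -0.28 ± 0.15 averaged over donors (adjusted p = 0.198) and Per1 at 0.21 ± 0.13 (adjusted p = 0.285), and neither passed. With a CKD donor kidney Nr1d2 was at -0.30 ± 0.20 (adjusted p = 0.455), and at -0.19 without CD-HR6. The other 4, Per3, Cry1, Dbp and Tef, lay between -0.17 and 0.00 on the log2 scale averaged over donors. For Dbp the 95% interval ran from -0.75 to 0.48, which leaves room for changes of either sign.

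**Figure D2:**
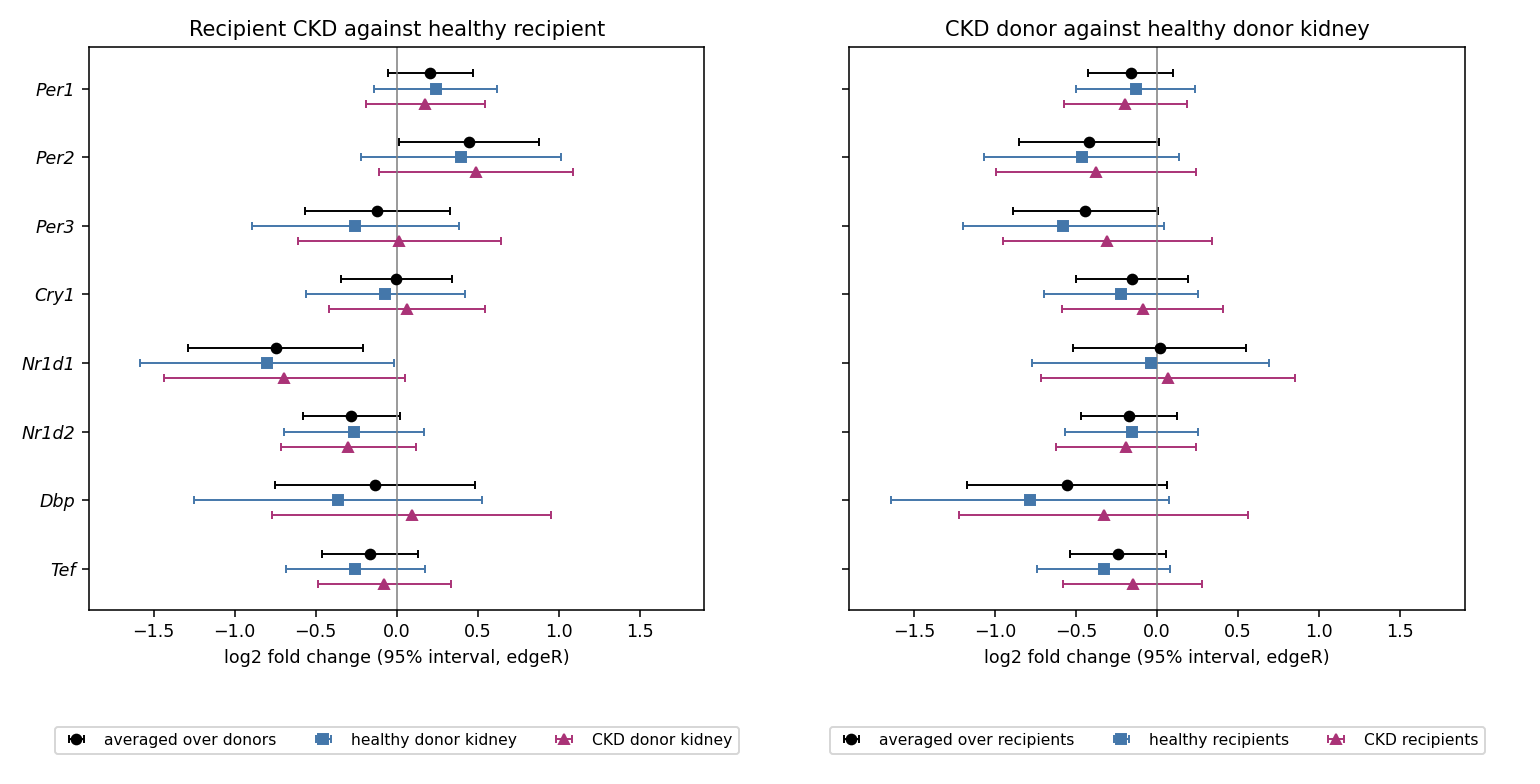
Log2 fold change (x axis) of each member for recipient CKD (left) and donor CKD (right), with 95% intervals from edgeR, averaged (black) and within each stratum. Of the averaged values, Nr1d1 lies lowest in the left panel at -0.75 and Dbp in the right panel at -0.56. No member passed the adjusted threshold in either panel.

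The recipient comparison is nearly confounded with the prefix of the deposited animal names, whose meaning the sources used here do not give. The time of day at which each heart was taken is not given either. Whether it differed between groups or prefixes, and its part in these differences, was not tested. All 12 healthy recipients carry prefix 13, as do 2 of 11 CKD recipients, HD-CR5 and CD-CR5, and 9 carry prefix 12. With the prefix as a covariate the log2 fold change of Nr1d1 was -1.08 (adjusted p = 0.267) and that of Per2 0.80 (adjusted p = 0.227). Among prefix 13 alone they were -1.06 (adjusted p = 0.233) and 0.82 (adjusted p = 0.362). Nr1d1 stood at 16.0 CPM in HD-CR5 and 20.8 CPM in CD-CR5, where the 12 healthy recipients ran from 18.7 to 72.3 CPM. Reads in no feature were 10.6 to 18.2% in CKD recipients (median 14.0%) and 13.5 to 21.5% in healthy ones (median 16.1%). Over the 23 libraries that share had r = 0.44 and rho = 0.47 with Nr1d1 (permutation p = 0.0377 and 0.0255, adjusted 0.377 and 0.188 over 10 such relations). Without the 2 libraries farthest in that share r was 0.61, and it was 0.42 among healthy and 0.05 among CKD recipients, 0.51 in prefix 13 and 0.07 in prefix 12. Non-unique alignments per counted read also differed, at 0.390 to 2.68 in CKD (median 1.20) and 0.843 to 10.7 in healthy recipients (median 2.31), with r = 0.33 and rho = 0.44 against Nr1d1 (permutation p = 0.122 and 0.0375, adjusted 0.442 and 0.188). The share of the 10 most abundant genes had r = -0.32 and rho = -0.39 with Nr1d1 (adjusted permutation p = 0.442 and 0.231). Its r was -0.62 in prefix 13 and -0.12 in prefix 12, and its median 64.0% in CKD and 60.3% in healthy recipients. For the TMM factor r was 0.27 and rho 0.33 (adjusted permutation p = 0.472 and 0.314), with r = 0.58 in prefix 13. For total count r was -0.21 and rho -0.07 (adjusted permutation p = 0.472 and 0.847). The part of the prefix and of these measures in the Nr1d1 difference was not tested apart from the values above.

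Whether the donor kidney's disease reached these genes was addressed by CKD against healthy donors, averaged over recipients. By edgeR 0 of 8 members were called, as were 0% of all genes, and 0 of 8 had an unadjusted p under 0.05, against 12.8% of all genes. DESeq2 and limma-voom also called 0 members, with 1.95% and 0% of all genes called. The unadjusted p was 0.033 for Per3 and 0.034 for Per2 by DESeq2. By limma-voom it was 0.014 for Dbp, 0.020 for Per3 and 0.027 for Per2. Leaving out CD-HR6 gave 4 members with an unadjusted p under 0.05 by edgeR, and leaving out HD-HR2, CD-HR3 or CD-CR5 gave 3. That count was 1 without CD-CR4, HD-CR3 or HD-CR4 and 0 under each other omission. For Dbp, HD-HR2 was the lowest heart of its group, and CD-HR3 and CD-CR5 were the highest of theirs. The share of all genes in these refits was not taken. The 8 log2 fold changes lay between -0.56 and 0.01 with a median of -0.21, beside 0.01 over all genes, and 7 of 8 were negative. Dbp stood lowest at -0.56 ± 0.30 (95% interval -1.18 to 0.06, adjusted p = 0.448), then Per3 at -0.44 ± 0.22 (adjusted p = 0.394), Per2 at -0.42 ± 0.21 (adjusted p = 0.400) and Tef at -0.24 ± 0.14 (adjusted p = 0.505). Among prefix 13 alone, with 2 CKD recipients, Dbp was at -0.29, Per3 at -0.18, Per2 at -0.46 and Tef at 0.04. With the prefix as a covariate they were at -0.57, -0.45, -0.41 and -0.24. Nr1d1 was at 0.01 ± 0.26, with a 95% interval from -0.52 to 0.55.

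In healthy recipients, where all libraries carry prefix 13, CD-HR against HD-HR gave 0 called members by edgeR, DESeq2 and limma-voom, where edgeR called 0% of all genes, DESeq2 0.0951% and limma-voom 0%. By edgeR none had an unadjusted p under 0.05, against 7.6% of genes. That count was 4 without CD-HR6, 3 without HD-HR2 or CD-HR3 and 0 under each other omission. The share of all genes in these refits was not taken. By limma-voom Dbp (unadjusted p = 0.014) and Per3 (unadjusted p = 0.031) were under 0.05, and by DESeq2 Per3 (unadjusted p = 0.046). Dbp was at -0.78 ± 0.41 (95% interval -1.64 to 0.07, adjusted p = 0.690), Per3 at -0.58 ± 0.30 (adjusted p = 0.674), Per2 at -0.47 ± 0.29 (adjusted p = 0.758) and Tef at -0.33 ± 0.20 (adjusted p = 0.754). Without CD-HR4 Per2 was at -0.28 and Dbp at -0.59, whereas Dbp was at -1.14 without CD-HR3 and Tef at -0.51 without CD-HR6. In CKD recipients, CD-CR against HD-CR gave 0 members by each of the 3 tools, with 0.0259% of genes called by edgeR, 0.311% by DESeq2 and 0.0259% by limma-voom. There, 0 members had an unadjusted p under 0.05 by edgeR against 8.31% of genes, and log2 fold changes ran from -0.38 to 0.07.

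CKD on both sides was set against CKD on neither (CD-CR against HD-HR), a comparison that shares its libraries with those above. EdgeR called 0 of 8 members and 3.65% of all genes, and DESeq2 and limma-voom called 0 members, with 5.63% and 3.37% of genes. By edgeR Nr1d2 alone had an unadjusted p under 0.05, against 18.6% of genes, with a log2 fold change of -0.45 ± 0.20 (adjusted p = 0.218). By DESeq2 the unadjusted p was 0.042 for Nr1d1, 0.030 for Nr1d2 and 0.049 for Tef. By limma-voom it was 0.026, 0.042 and 0.039 in the same order. Nr1d1 was at -0.73 ± 0.36 (adjusted p = 0.275), Dbp at -0.69 ± 0.41 (adjusted p = 0.378), Per3 at -0.56 ± 0.30 (adjusted p = 0.316) and Tef at -0.41 ± 0.20 (adjusted p = 0.275). Without HD-HR4 Nr1d2 was at -0.29 (unadjusted p = 0.14 by edgeR) and Nr1d1 at -0.47. Without HD-HR5, CD-CR1 or CD-CR6 the unadjusted p of Nr1d2 by edgeR was 0.0509, 0.0756 and 0.0696. Leaving out HD-HR2 or CD-CR5 instead gave 3 members with an unadjusted p under 0.05 by edgeR. Leaving out HD-HR1, CD-CR2 or CD-CR4 gave 2, and each other omission gave 0 or 1. The share of all genes in these refits was not taken. Per1 and Per2 were at 0.04 and 0.02. Only 1 CD-CR library has prefix 13, and it is assumed to vary like the other groups. Within that prefix Nr1d1 was at -0.90, Nr1d2 at -0.42, Dbp at 0.03, Per3 at -0.03 and Tef at -0.04. With the prefix as a covariate Nr1d1 was at -1.07, Nr1d2 at -0.64, Dbp at -0.25, Per3 at -0.31 and Tef at -0.33. The donor by recipient interaction, the test of whether the donor effect differs between kinds of recipient, called 0 members by edgeR, DESeq2 and limma-voom where these called 0.00864%, 0.0173% and 0.00864% of genes. No member had an unadjusted p under 0.05 there, against 3.26% of genes, and for Dbp the interval ran from -0.78 to 1.69.

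Most of the variation in these genes lay between rats of the same group. The SD of log2 CPM about the group means was 0.76 for Dbp, 0.65 for Nr1d1, 0.58 for Per3 and 0.56 for Per2, against 0.30 for the median gene. These values stood at the 97.2, 94.4, 90.7 and 89.2 percentile of all genes tested. Cry1 (0.41), Nr1d2 (0.38), Tef (0.38) and Per1 (0.33) were nearer the median, at the 73.1, 68.7, 68.7 and 59.1 percentile. The groups accounted for 34.2% of the variance of Per2, 30.7% of Nr1d1, 24.8% of Dbp and 5.31% of Cry1, against 20.2% for the median gene. The median SE of the members in the averaged recipient comparison was 0.19, against 0.12 over all genes.

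Within that variation, the 2 output factors and the 2 period genes Per2 and Per3 moved together from heart to heart, a group of 4 picked after these values were seen. Over the 23 libraries Dbp and Per3 had r = 0.93 and rho = 0.91, Per3 and Tef r = 0.85 and rho = 0.82, Dbp and Tef r = 0.82 and rho = 0.79, and Dbp and Per2 r = 0.81 and rho = 0.63. For Dbp and Per3 the permutation p was 1e-05 by both, the smallest these permutations can give, and 9.33e-05 and 0.00014 after adjustment over the 28 pairs of members. All 6 pairs of these 4 genes passed by Pearson's r (r 0.59 to 0.93, adjusted permutation p at most 0.0121), and 5 of 6 by Spearman's rho, Per2 and Tef being the exception (rho = 0.47, adjusted p = 0.0727). As deviations from the group means their r was 0.72 to 0.92, so the relation also held within groups, and it was 0.69 to 0.89 in prefix 12 (n = 9) and 0.74 to 0.95 in prefix 13 (n = 14). Without the 2 libraries farthest from the median of the first gene, r was 0.42 to 0.89, with 0.89 for Dbp and Per3, 0.63 for Dbp and Per2 and 0.42 for Per2 and Tef. The members of a pair share each library's depth and scaling.

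**Figure D3:**
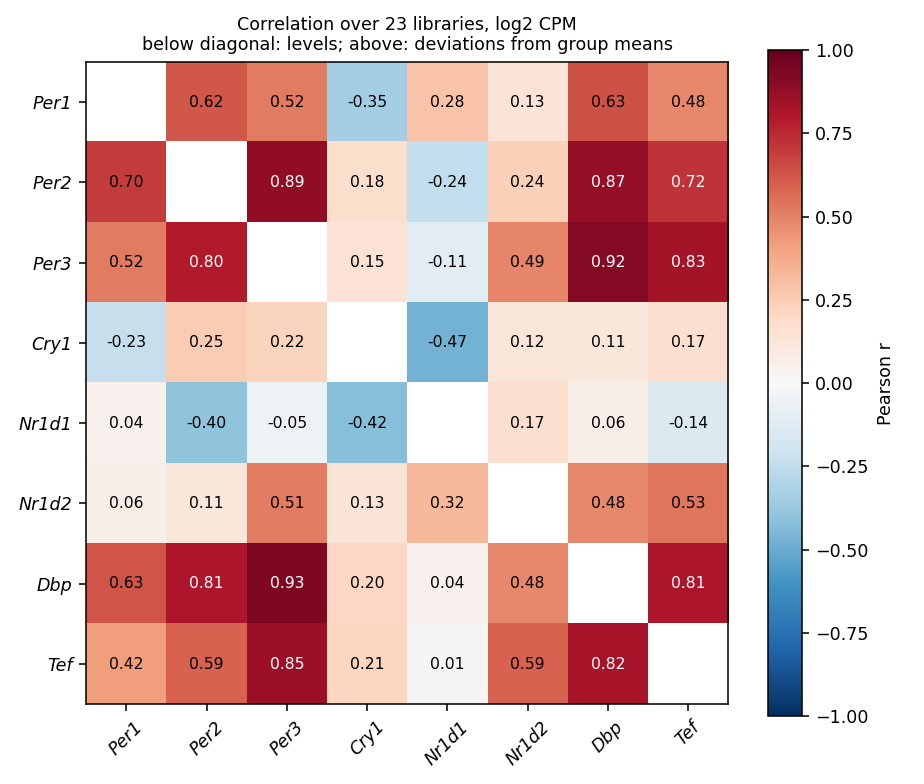
Pearson r between members over the 23 libraries, on levels (below the diagonal) and on deviations from group means (above). Per2, Per3, Dbp and Tef form a block of r from 0.59 to 0.93 below the diagonal, and the rows of Cry1 and Nr1d1 stay at or below 0.32.

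Per1 followed this block in part. Its r was 0.70 with Per2 (rho = 0.60, adjusted permutation p = 0.000747 and 0.0152) and 0.63 with Dbp (rho = 0.49, adjusted p = 0.00488 and 0.0596). Leaving out its 2 farthest libraries, CD-HR4 and HD-CR1, gave 0.53 and 0.52. Nr1d2 was related to part of the block, first to Tef (r = 0.59, rho = 0.56, adjusted permutation p = 0.00934 and 0.0211), with r = 0.50 without CD-HR2 and HD-HR4. With Per3 it had r = 0.51 and rho = 0.56 (adjusted permutation p = 0.032 and 0.0211), and 0.62 without CD-HR4 and CD-CR6. With Dbp it passed by Pearson's r (0.48, adjusted permutation p = 0.044) and not by rho (0.45, adjusted p = 0.083), and r was 0.21 without CD-HR2 and HD-HR4. Over all 28 pairs 12 passed by Pearson's r, 8 by Spearman's rho and 9 as deviations from group means.

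Nr1d1 and Cry1 did not pass with any other member. For Nr1d1 the 7 values of r ran from -0.42 to 0.32, with 0.04 against Dbp (rho = 0.00, adjusted permutation p = 0.882 and 0.998) and 0.32 against its paralog Nr1d2. For Cry1 they ran from -0.42 to 0.25, the lowest being with Nr1d1 (r = -0.42, rho = -0.42, adjusted permutation p = 0.0887 and 0.105). Within prefix 12 the r of Nr1d1 with Dbp was 0.59 and within prefix 13 it was -0.25, a difference that was not tested.

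**Figure D4:**
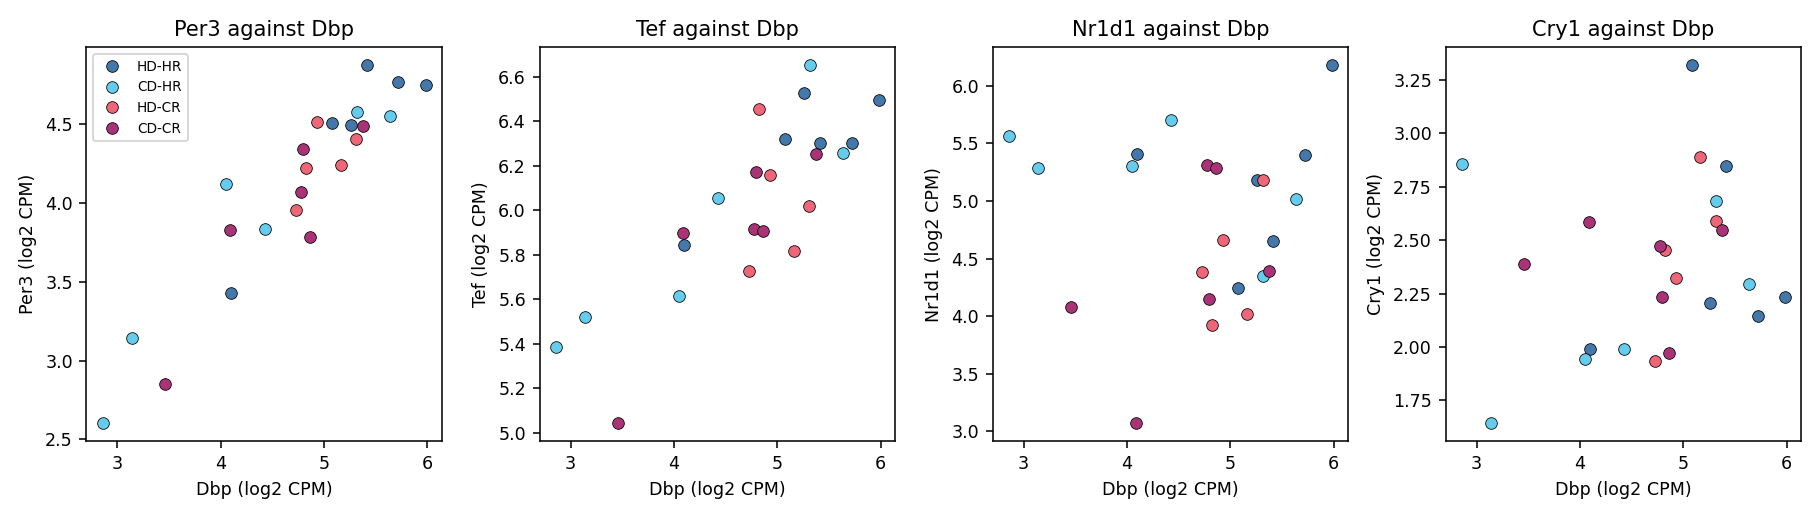
Log2 CPM of Per3, Tef, Nr1d1 and Cry1 (y axes) against Dbp (x axis), 1 point per library, coloured by group. Per3 (r = 0.93) and Tef (r = 0.82) follow Dbp, while Nr1d1 (r = 0.04) and Cry1 (r = 0.20) are scattered.

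In single hearts Nr1d1 stood apart from Dbp in some and followed it in others. CD-HR4 had the lowest level of all 23 libraries for Per1 (40.0 CPM), Per2 (9.25 CPM), Per3 (5.87 CPM) and Dbp (7.04 CPM), while its Nr1d1 (47.0 CPM) and Cry1 (7.04 CPM) stood above the medians of 32.2 and 4.80 CPM. CD-CR6 was low for Per3 (7.03 CPM), Dbp (10.8 CPM) and Tef (32.7 CPM), and its Nr1d1 was low as well (16.7 CPM). HD-HR4 lay at the other end, with the highest Dbp (63.1 CPM), Nr1d1 (72.3 CPM) and Nr1d2 (29.3 CPM). Levels of Dbp had r between -0.22 and 0.11 with total count, TMM factor, reads in no feature, non-unique alignments and the share of the 10 most abundant genes, rho between -0.23 and 0.18, and adjusted permutation p of at least 0.472 and 0.563.

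Ranked by Pearson correlation with Dbp across the 23 libraries, the first 3 of the 11567 other genes were Per3, Tef and Per2. Per1 was at place 64, Nr1d2 at 430, Cry1 at 2953 and Nr1d1 at 5185. As deviations from group means the first 3 places went to Per3, Per2 and Tef. Outside the set the most similar genes were ENSRNOG00000042717 (r = 0.81, 1.57 to 12.1 CPM) and ENSRNOG00000049385 (r = 0.80, 30.8 to 76.0 CPM). The most opposite were ENSRNOG00000014448 (r = -0.81, 1.07 to 26.6 CPM) and ENSRNOG00000010589 (r = -0.77, 75.4 to 149.7 CPM). ENSRNOG00000014448 averaged 3.65 CPM in HD-HR, 10.8 in CD-HR, 1.96 in HD-CR and 4.53 in CD-CR, and like Dbp it passed neither the recipient (adjusted p = 0.105 by edgeR) nor the donor comparison (adjusted p = 0.159).

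The ratio of Nr1d1 to Per2 counts within a library, which does not depend on scaling between libraries, is compared between hearts only, since its zero depends on the lengths of both transcripts. It was chosen after their values were seen and is given without a test. On the log2 scale it ran from -1.06 to 1.31 in HD-HR (median -0.11) and from -1.14 to 2.35 in CD-HR (median 0.81). The 5 HD-CR hearts had -1.12, -1.52, -0.16, -1.17 and -2.02, and CD-CR hearts -2.10 to 0.09 (median -0.96). The medians of both groups of CKD recipients lay below those of healthy recipients, and the ranges overlapped. The 2 CKD recipients of prefix 13 were HD-CR5 (-2.02) and CD-CR5 (-1.21), where the lowest of the 12 healthy recipients had -1.14. Nr1d1 and Per2 had the lowest and the highest recipient log2 fold change of the set. Lower ratios in CKD recipients therefore follow from the choice of this pair. How many other pairs of genes part as far was not counted.

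**Figure D5:**
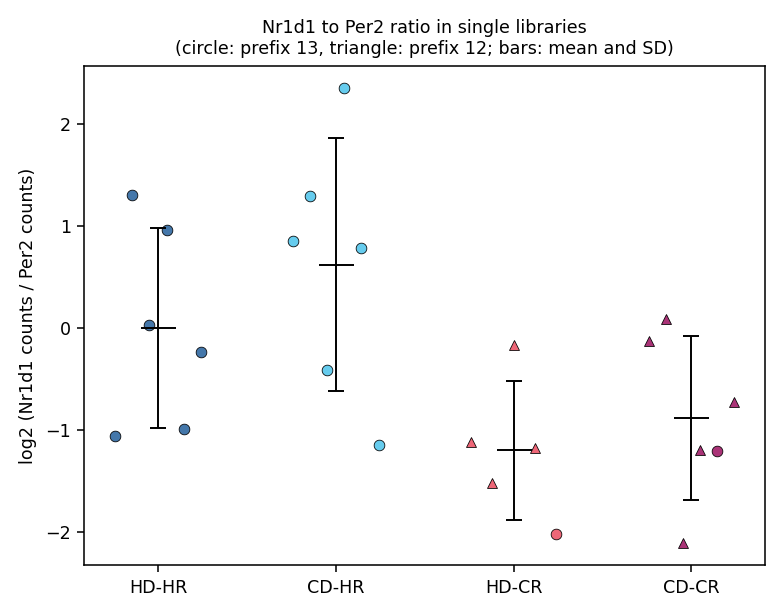
Log2 ratio of Nr1d1 to Per2 counts (y axis) in each library, by group (circles animal prefix 13, triangles prefix 12), with mean and SD as bars. The medians are -0.11 in HD-HR, 0.81 in CD-HR, -1.17 in HD-CR and -0.96 in CD-CR, and the groups overlap.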

How the data were processed

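Each library was made from Trizol-extracted heart RNA, after poly(A) selection, with a directional kit, per the labels' protocols. The deposited values are raw read counts per gene. STAR 2.4.2a, Picard and HTSeq 0.6.1p1 with build Rnor_5.0 are named, without their order, in the submitters' processing notes, and the sources used here do not give the annotation release, strand setting or duplicate removal. The 5 summary lines per file were left out of library sizes. No 2 libraries of a group agreed within sampling noise (lowest chi-square per degree of freedom 8.38). P-values measure the spread between rats.

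In 1 fit of all 23 libraries, genes kept by filterByExpr were TMM-scaled and given the quasi-likelihood test of edgeR 4.0.16 (robust glmQLFit, R 4.3.3), with Benjamini-Hochberg adjustment over 11568 genes. The code was tested on simulated data. For edgeR, SE is the absolute log2 fold change divided by the root of F. Log2 CPM used a prior count of 2, and correlations 100000 permutations. Alternatives used DESeq2 1.42.0, limma 3.58.1 and other settings.

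The members, gene lists and tests were chosen with earlier results of these data known. Named genes were the members and, by likeness to Dbp, the 2 most similar and the 2 most opposite others. Alternatives were followed for the 22 fold changes of members with an unadjusted p under 0.2, a rule set after the values were seen. The 3 lists fixed by symbol (other clock genes, clock-controlled and glucocorticoid targets, cell type markers) were matched to 0 genes, because no table at hand pairs rat Ensembl identifiers with symbols.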

Additional observations from a re-analysis of the deposited data

Results flagged for a closer look

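Per3 in HD-HR2 stood far below the rest of its group, at 10.6 CPM where the next lowest of the 6 HD-HR hearts had 22.3 CPM. The same heart had the lowest Per2 (17.1 CPM), Dbp (16.9 CPM) and Tef (57.2 CPM) of its group. It was the only one of 32 combinations of member and group in which the highest or lowest heart stood that far apart, and chance flags about 1 in 20.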

How the results depend on the processing

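The count of members called in the averaged recipient comparison was 0, and became 1, Nr1d1 in each case, under DESeq2, under limma-voom and without CD-CR1, the library whose genes deviate most from its group (1.54 times the median library). Leaving out 1 library at a time gave 0 to 1. In the other 7 comparisons the count stayed at 0 under every alternative run: RLE size factors, no filter, DESeq2, limma-voom, the prefix covariate, 1 prefix alone, the 2 groups alone, and each omission. Whether replicate numbers pair the rats is not settled by the values. Same-numbered libraries of 2 groups had correlations from -0.32 to 0.36 across genes, and at most 4 of 6 pairs exceeded 0.1. The same number was the best match in 2 of 5 pairs for HD-HR and HD-CR. It was so in 3 of 6 for CD-HR and CD-CR and 3 of 6 for HD-HR and CD-HR. For HD-CR and CD-CR it was 0 of 5, and for HD-HR and CD-CR 0 of 6. With the replicate block, 0 members were called in all 8 comparisons, and Nr1d1 was at -0.78 (adjusted p = 0.0757) for the recipient. Of the 22 fold changes with an unadjusted p under 0.2, 2 changed sign, both among prefix 13 alone, with Tef at 0.0437 for the averaged donor comparison and Dbp at 0.0346 for CKD on both sides. Of 28 pairs of members, 12 were correlated past the threshold, 9 as deviations from group means. All 8 members kept a within-group SD above the median gene's with a prior count of 0.5. For Cry1, with 22 to 96 counts per library, depth limits precision most.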
